A study of Capra hircus with 4 samples.

Results

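The assembled goat muscle transcriptome holds long sequences that could not be paired with any goat protein, and 2584 of them are described here. They were chosen as the unigenes (the authors' name for an assembled transcript sequence) of 1000 bases or more that have no entry in the authors' table of matches to goat proteins. Of 59774 unigenes, 10654 were at least 1000 bases long and 2614 of these had no goat match. Of the 2614, 30 were left out because their nucleotide match mentions mitochondria, ribosomal RNA, Escherichia or Shigella, and 19 of those 30 were mRNAs of nuclear genes, which the wording removed too. No measured level was used in the choice. The members ranged from 1000 to 10772 bases, with a median of 1389.5, compared with a median of 1996 bases for the 7845 long unigenes that do have a goat match.

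The study asked how ractopamine, a beta-agonist fed to increase lean growth, alters gene expression in the longissimus dorsi, the long muscle of the back, of cashmere goats 2 months of age. The male goats gave 1 control library without ractopamine and 3 libraries after oral ractopamine at 1 mg/kg, in a trial that dosed the animals for 28 days and withdrew the compound for 21. The labels call the treated libraries replicates, whereas the methods of the study place sequenced samples on different days, so they are named treated libraries 1, 2 and 3 here and none is assigned to a day. With 1 control library, a difference between treatment and control cannot be told apart from a difference between libraries.

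In an assembly made without a genome, a long sequence with no protein match can be an untranslated region cut off from its coding part, an intron of unspliced RNA, a long non-coding RNA, a repeat, or RNA that is not from the goat at all. Long non-coding RNAs act without being translated. H19, an imprinted RNA expressed from the maternal allele next to the growth factor gene IGF2, is abundant in fetal and young muscle. Satellite DNA is tandemly repeated sequence around the centromeres, and its transcripts carry no known protein.

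The bases of 2 repeat sequences are shown first because these members held much of the total of treated library 2. All sequences are from the authors' assembly and are counted from base 1 at the 5′ end of the unigene as deposited. Unigene c8656_g1 (1579 bases) matches an uncharacterized sheep RNA and consists of the same unit written again after 804 bases, with 775 of 775 comparable bases equal. Below, its bases 1 to 150 are given, and then its bases 755 to 954, where the capitals mark the same 150 bases at the start of the second copy. The first 150 bases of c13152_g1 (1002 bases), which matches a goat sequence deposited as microsatellite II, follow without capitals. It is called a repeat by this match alone. A search of all members for repeated stretches listed c8656_g1 and did not list c13152_g1.
c8656_g1 from base 1: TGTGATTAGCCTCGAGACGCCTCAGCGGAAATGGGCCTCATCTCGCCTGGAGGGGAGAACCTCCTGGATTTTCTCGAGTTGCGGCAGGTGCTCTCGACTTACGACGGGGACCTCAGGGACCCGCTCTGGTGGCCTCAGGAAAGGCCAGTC
c8656_g1 from base 755: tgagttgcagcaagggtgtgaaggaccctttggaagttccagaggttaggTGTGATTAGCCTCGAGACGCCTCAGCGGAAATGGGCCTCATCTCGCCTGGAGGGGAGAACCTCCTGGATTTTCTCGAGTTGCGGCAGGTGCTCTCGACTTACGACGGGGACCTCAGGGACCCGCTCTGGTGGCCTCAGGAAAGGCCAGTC
c13152_g1 from base 1: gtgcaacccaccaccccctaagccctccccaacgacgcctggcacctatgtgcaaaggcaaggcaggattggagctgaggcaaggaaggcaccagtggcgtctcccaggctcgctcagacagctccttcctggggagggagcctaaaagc

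The H19 and FRMD8 non-coding RNAs had the highest FPKM of the non-coding members in the control library and in treated library 1, and a stretch of each up to its last run of A is shown with the polyadenylation signal AATAAA in capitals. The H19 unigene c35841_g1 is shown from base 2139 to its last base, 2258, and the FRMD8 non-coding unigene c11827_g1 from base 3243 to 3362, near its last base, 3368.
c35841_g1 (H19): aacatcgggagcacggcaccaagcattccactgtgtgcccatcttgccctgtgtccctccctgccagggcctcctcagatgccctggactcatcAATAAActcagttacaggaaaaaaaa
c11827_g1 (FRMD8 non-coding): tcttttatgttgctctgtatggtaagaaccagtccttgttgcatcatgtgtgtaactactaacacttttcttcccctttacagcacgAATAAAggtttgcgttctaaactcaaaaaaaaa

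Among the 3 members that match microRNA precursors, 2 held the seed of a microRNA in their name, the bases 2 to 8 of the mature RNA that pair with its targets. The seed GGAATGT of the muscle microRNA miR-1 lies at base 737 of c21979_g1, which matches the mir-1-2 and mir-133a-1 precursor transcript. The seed AGCACCA of miR-29b lies at base 862 of c50602_g1. Each is shown in capitals within the window of lowest predicted folding energy around it. The windows are bases 684 to 768 (85 bases, -36 kcal per mol) and 806 to 895 (90 bases, -34.6 kcal per mol). The seed of miR-133a was also searched on both strands of c21979_g1 and gave no window. The seed searched in c51059_g1, which matches the precursor gene of miR-206, was GGAATGT, and it was not in that unigene on either strand.
c21979_g1 (mir-1-2): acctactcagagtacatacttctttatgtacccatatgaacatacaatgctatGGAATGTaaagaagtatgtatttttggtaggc
c50602_g1 (mir-29b-2): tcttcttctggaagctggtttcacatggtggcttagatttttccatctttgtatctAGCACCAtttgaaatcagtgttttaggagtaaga

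The best nucleotide match sorted the members into kinds. It was an mRNA for 1739 members, other genomic sequence (clones, gene regions) for 346 and a non-coding RNA for 104, and 388 had no match. The rest were the 3 microRNA precursors, c13152_g1, a ribosomal RNA taken from a solved structure (c13814_g2), a bacteriophage sequence (c35716_g1) and a cloning vector (c1795_g1). Cattle gave the first match of 1140 members, sheep of 425 and humans of 152, while 7 matched a goat entry. Only 39 members had a protein domain match. The median of the longest reading frame was 78 codons, 15.8% of the length, compared with 322 codons and 49.5% in the goat-matched long unigenes. The members were also poorer in G and C, with a median of 41.3% against 52.2%. A polyadenylation signal, AATAAA or ATTAAA, was searched in the last 100 bases, and on the opposite strand in the first 100, since the strand of a unigene is not known. It was present in 50.4% of the members and in 44.9% of the goat-matched unigenes. Within the members it was present in 56.2% of those that match an mRNA and in 35.8% of those without a match.

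The depth and composition of the libraries set what can be read from the members. From here on, 4 values in a row are those of the control library and then of treated libraries 1, 2 and 3. Expected counts (the authors' estimate of fragments) summed to 8533046, 7962590, 7339521 and 6675218. Unigenes matching mitochondrial sequence held 1990032, 3270992, 6564057 and 3630545 of them, and those matching bacterial sequence 108646, 295959, 550113 and 166989. Counts left without unigenes described as mitochondrial, ribosomal or bacterial are called remaining counts, and they came to 6425512, 4372442, 203897 and 2864546. The ribosomal RNA match c13814_g2, the phage and the vector stayed in. c13814_g2 alone held 0.147%, 0.502%, 13.8% and 0.421% of the remaining counts. Of the 2584 members, 8, 17, 1419 and 93 had a count of 0. A count of 3 equals 0.467 counts per 1000000 remaining counts in the control library and 14.7 in treated library 2, so most members were below what treated library 2 could show. The 6 of 9 skeletal muscle markers found by name summed to 69844 to 135417 counts per 1000000, although ACTA1 had a count of 0 in treated library 2. The 3 of 5 fibroblast markers found summed to 108, 153, 1457 and 254 counts per 1000000, and the 3 of 5 adipocyte markers to 14.01, 101, 564 and 26.9. The 4 endothelial markers summed to 161 to 486. Of the 3 myeloid markers found, none had a count in treated library 2, and the sums were at most 4.35. The 1 red blood cell marker found was between 4.05 and 9.81, and none of the 4 B and plasma cell markers was found by name. The part of these markers in the results was not tested, and in whole tissue fewer cells of a type and less RNA per cell cannot be told apart.

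Together the members held 3.22% (95% Wilson interval 3.21 to 3.23%), 5.22% (5.20 to 5.24%), 32.2% (32.0 to 32.4%) and 3.50% (3.48 to 3.52%) of the remaining counts. These intervals cover counting error only. Of all counts they held 2.43%, 2.87%, 0.895% and 1.503%, so treated library 2 was the highest on one denominator and the lowest on the other. The high share of treated library 2 came from 4 members, c13814_g2, c35697_g1, c8656_g1 and c13152_g1, which held 29.2% of the remaining counts there and 0.174% in the control library. Without these 4, the phage and the vector, the other members held 2.98%, 4.50%, 2.04% and 2.90% of the remaining counts. These 6 members were set apart after their counts had been seen. With 4 libraries an exact permutation test cannot give p below 0.25, and for the share of all members it gave p = 0.5 (2-sided), with treated libraries at 13.6% ± 16.1 (SD, n = 3).

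**Figure D1:**
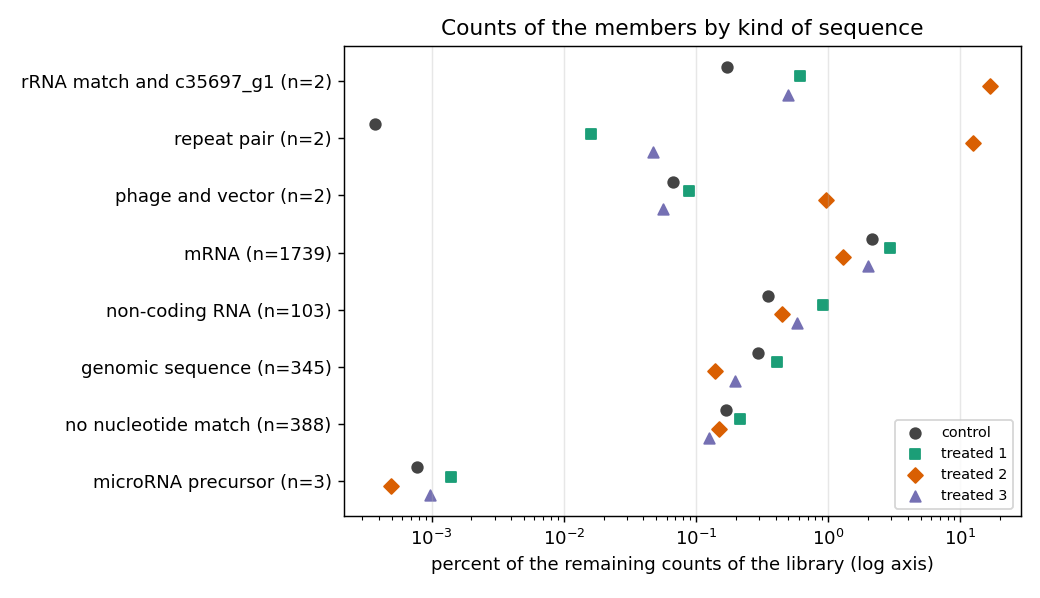
Percent of the remaining counts of each library (horizontal log axis) held by each kind of member, with 1 symbol per library. In treated library 2 the ribosomal RNA match c13814_g2 and the clone match c35697_g1 together held 16.7% and the repeat pair (c8656_g1 and c13152_g1) 12.5%, while the members that match an mRNA held between 1.30% and 2.95% in the 4 libraries.

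The repeat sequences were higher in every treated library. c8656_g1 had 16, 591, 20655 and 1049 counts. c13152_g1 had 8, 116, 4876 and 295. In all 3 treated libraries both were above the control library, and treated library 2 stood far above the others. Per 1000000 remaining counts, c8656_g1 was 54.3-fold (exact Clopper-Pearson interval 33.1 to 95.6), 40682-fold (25045 to 71187) and 147-fold (90.1 to 258) above the control library. The folds of treated library 2 rest on the small remaining total, and per 1000000 of all its counts the same unigene was at 2814, compared with 1.88 in the control library. In edgeR's quasi-likelihood test of treated against control libraries, c8656_g1 rose with an adjusted p of 0.0228 and c13152_g1 with an adjusted p of 0.00109. The call of c13152_g1 held in all 7 alternative fits, and that of c8656_g1 was lost without treated library 1, without treated library 3 and in no other fit. c8656_g1 had 2.00 to 5.09 times the counts of c13152_g1 across the 4 libraries.

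Ribosomal sequence stayed among the members through the wording of its match. c13814_g2 (2196 bases, large-subunit ribosomal RNA) had 9463, 21940, 28078 and 12055 counts. c35697_g1 (1354 bases), which matches a human clone of unknown chromosome, had 1662, 5039, 5951 and 2120. The ratio of the second to the first was 0.176, 0.230, 0.212 and 0.176. Whether c35697_g1 is ribosomal too was not tested. The unigene of the small-subunit ribosomal RNA, which the rule leaves out, kept a ratio of 0.755 to 1.08 to c13814_g2. Neither member was called by the group test, with adjusted p of 0.398 for c13814_g2 and 0.168 for c35697_g1 (edgeR).

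The longest member, c35716_g1, matches a bacteriophage, and its 10772 bases are 5386 bases written 2 times without a difference. It had 4251, 3777, 1757 and 1550 counts, which is 498, 474, 239 and 232 per 1000000 of all counts. The levels thus formed 2 pairs, the control library with treated library 1 and treated library 2 with treated library 3. The vector sequence c1795_g1 had 32, 118, 197 and 53 counts and was called higher by the group test (edgeR adjusted p = 0.00144). The call was kept in 5 of 7 alternative fits and lost without treated library 2 and with no filter on low counts.

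H19 had the highest count of any member in treated library 3. c35841_g1 had 4023, 6814, 256 and 12406 counts, or 626, 1558, 1256 and 4331 per 1000000 remaining counts. All 3 treated libraries were above the control library on this scale, by 2.49-fold (2.39 to 2.59), 2.01-fold (1.76 to 2.28) and 6.92-fold (6.68 to 7.17). By deposited FPKM the values were 229, 415, 17 and 901, so there treated library 2 was below the control library. The group test did not call it (edgeR log2 fold change 2.29, adjusted p = 0.478). Its neighbour in mammalian genomes, the growth factor gene IGF2, was also among the members: c2768_g1 (1412 bases) had 109, 435, 98 and 225 counts, or 17.0, 99.5, 481 and 78.5 per 1000000. IGF2 rose in the group test, with a log2 fold change of 4.03 and an adjusted p of 0.0472 (edgeR), and the call was kept in 1 of 7 alternative fits. By deposited FPKM c2768_g1 was at 10.55, 44.86, 11.07 and 27.71. The goat-matched IGF2 unigene, c11659_g1 (1531 bases), had 25, 39, 10 and 30 counts, above the control library in all treated libraries per 1000000 remaining counts as well. MEG3, another imprinted non-coding RNA, was near the limit of detection, with 5, 14, 0 and 11 counts for c29836_g1. No member matched the other RNAs of a list of long non-coding RNAs such as MALAT1, NEAT1 or XIST by name.

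The other abundant non-coding member matches a non-coding transcript of FRMD8, a gene that borders the non-coding RNA NEAT1 in mammals. Whether c11827_g1 (3368 bases) belongs to that RNA was not tested. It had 10910, 24702, 157 and 1065 counts, or 1698, 5649, 770 and 372 per 1000000 remaining counts. Treated library 1 was thus 3.33-fold (3.25 to 3.40) above the control library and treated library 3 was at 0.219 (0.205 to 0.233) of it. The goat-matched unigenes of FRMD8 had 8, 4, 0 and 4 counts. The group test did not call the member (edgeR adjusted p = 0.860). The precursor transcripts of microRNAs were rare: c21979_g1 (mir-1-2) had 19, 39, 1 and 24 counts, c50602_g1 (mir-29b-2) had 4, 16, 0 and 3, and c51059_g1 (miR-206) had 27, 6, 0 and 1. None of the 3 was called, with edgeR adjusted p from 0.514 to 0.566.

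**Figure D2:**
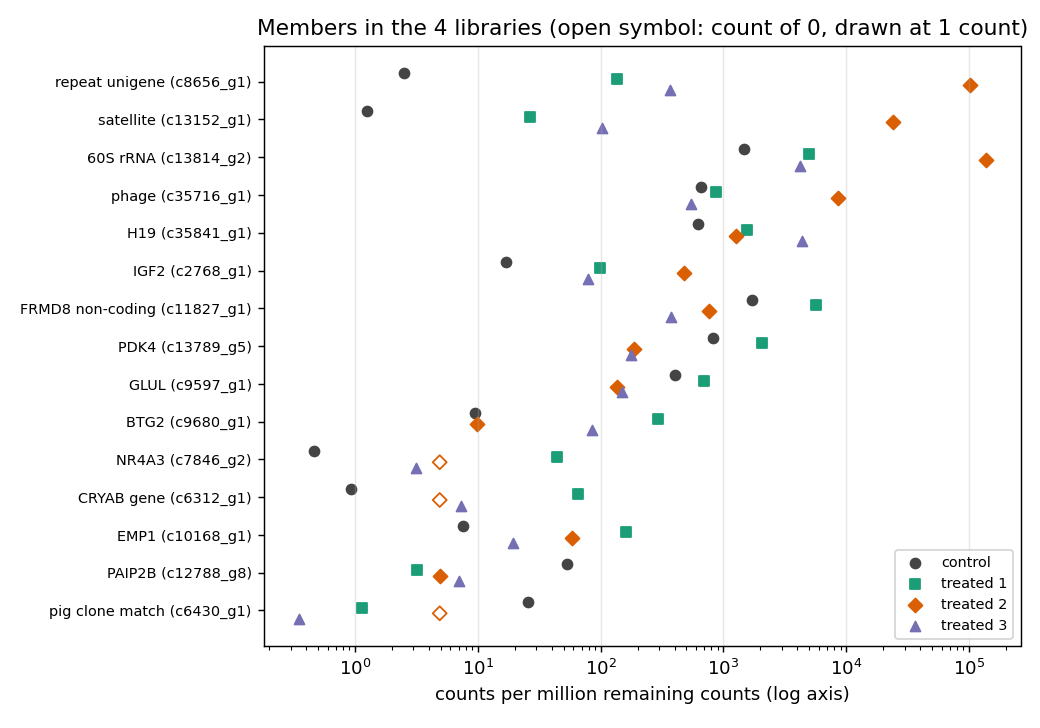
Counts per 1000000 remaining counts (horizontal log axis) of 15 members in the 4 libraries, where an open symbol marks a count of 0 drawn at the level of 1 count. The repeat unigenes are highest in treated library 2, H19 is at 626 in the control library and 4331 in treated library 3, and BTG2, NR4A3 and the CRYAB gene sequence are highest in treated library 1.

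Most members with a gene symbol shared their gene with a goat-matched unigene. Of the 1846 members with a gene symbol in their match, 1429 named a gene that also had a goat-matched unigene, and these stood for 1249 genes. A pair is a member with the goat-matched unigenes of its gene, and the share of the member was taken from the counts of its pair. Other members of the same gene were left out, so it is not a share of all counts of the gene. Members of the same gene gave separate pairs with the same goat-matched counts. Pairs with at least 20 counts in the control library on both sides numbered 832. In the control library the member held a median of 37.9% of the counts of its pair (middle 50% of pairs, 24.5 to 50.7%). It held 72.9% (43.2 to 87.1%) in treated library 1 and 60.7% (39.5 to 78.2%) in treated library 3. In treated library 2, where 669 pairs had any count, the median was 50% and the middle 50% of pairs ran from 0 to 100%, so little can be read there. A log2 fold of each treated library against the control library was also taken, from counts per 1000000 with 1 added. The fold of the member exceeded that of the goat-matched unigenes of the same gene by a median of 1.74, 0.96 and 1.13 in the treated libraries. The member had the higher fold in 89.1%, 65.3% and 87.0% of the pairs with any count there.

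The medians are also given by the sequence of the member, with no test. For the 506 pairs whose member had a polyadenylation signal at an end, the median share was 39.3%, 78.5%, 58.6% and 64%. For the 326 pairs without one it was 35.7%, 61.8%, 40% and 53.2%. For the 34 pairs whose member matched genomic sequence it was 3.97%, 4.04%, 0% and 2.57%. With 1 control library no permutation test of this share can reach p below 0.25, and the exact permutation test of the median shares gave p = 0.5 (2-sided, treated libraries 61.2% ± 11.5, SD, n = 3).

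**Figure D3:**
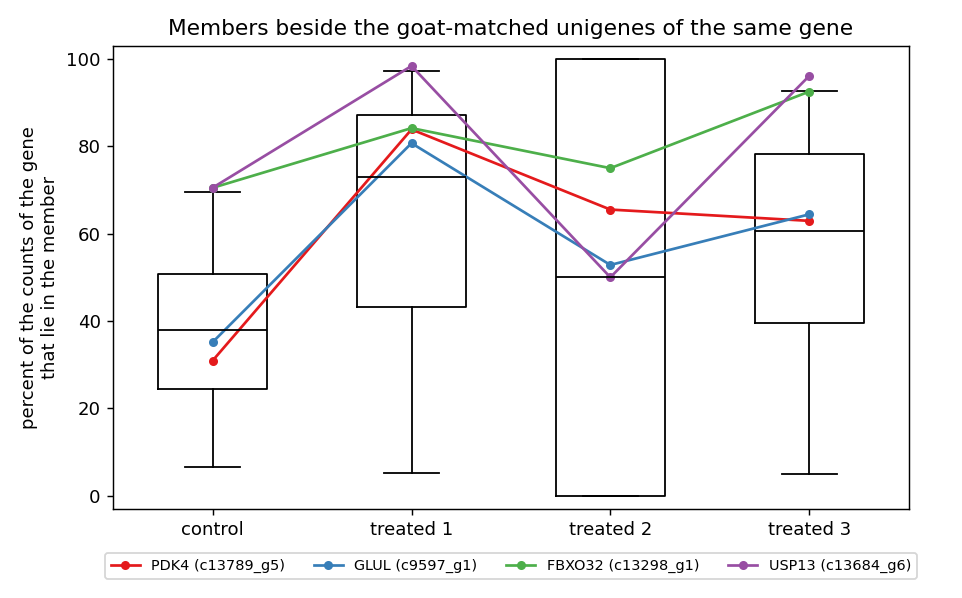
Percent of the counts of a pair that lie in the member (vertical axis) for 832 pairs (669 in treated library 2 and 831 in treated library 3, where the others had no count), with a box for the middle 50%, a line for the median and whiskers from the 5th to the 95th percentile. The axis label names these the counts of the gene, but other members of the gene are left out. The coloured lines are 4 single genes, and the median is 37.9% in the control library and 72.9% in treated library 1.

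PDK4, the kinase that switches off pyruvate dehydrogenase when muscle burns fat, shows this in single counts. Its member c13789_g5 (1467 bases) had 5323, 9097, 38 and 506 counts, and the goat-matched PDK4 unigenes together had 11892, 1749, 20 and 298. The member thus held 30.9%, 83.9%, 65.5% and 62.9% of the counts of these PDK4 unigenes. In treated library 1 the member was 2.51-fold (2.43 to 2.60) above the control library, while the goat-matched unigenes were lower, by a log2 difference of -2.21. GLUL, glutamine synthetase, had 2583, 3032, 28 and 431 counts in c9597_g1 and 4765, 724, 25 and 238 in its goat-matched unigene. Its member was 1.73-fold (1.64 to 1.82) above the control library in treated library 1 and its goat-matched unigene was lower, at -2.16. The direction read for these 2 genes in treated library 1 therefore depended on which unigene was taken. Neither member was called by the group test (edgeR adjusted p = 0.946 and 0.993). CALM3, a calmodulin gene, had 1879, 1752, 19 and 1038 counts in c8184_g1 (adjusted p = 0.933).

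In other genes both parts were lower in the treated libraries. FBXO32, the muscle atrophy ubiquitin ligase, had 3674, 867, 3 and 397 counts in its member c13298_g1 and 1537, 163, 1 and 32 in its goat-matched unigene. The member was at 0.347 (0.322 to 0.374) and 0.242 (0.218 to 0.269) of the control library in treated libraries 1 and 3. USP13, a deubiquitinating enzyme, had 2642, 680, 3 and 422 counts in c13684_g6 and 1104, 11, 3 and 17 in its goat-matched unigene. Neither member was called (edgeR adjusted p = 0.289 and 0.420). FBXO32 and USP13, as well as IGF2, BTG2, NR4A3, CRYAB, AKAP12, EMP1 and PAIP2B, were named after their values had been seen.

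The x-fold, the ratio of FPKM (fragments per kilobase of length and per 1000000 fragments) of a treated to the control library with 0.1 FPKM added to both, gives the direction over all members. With the limits 3 and 0.6, and among the 1905 members with a mean FPKM of at least 1, 188 were higher and 496 lower in treated library 1, where 15.3% and 46.3% of all unigenes tested were. In treated library 3, 22 were higher and 1030 lower, beside 7.79% and 57.9% of all unigenes, and in treated library 2, 9 were higher and 1876 lower, beside 2.11% and 85.3%. In all 3 treated libraries 2 members, c8656_g1 and c13152_g1, were higher (0.485% of all unigenes) and 434 were lower (36.7% of all).

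The deposited FPKM counts mitochondrial fragments in its denominator, so the x-fold was also taken on the remaining counts. The minimum of 1 was then applied to FPKM rescaled to those counts, which were 75.3%, 54.9%, 2.78% and 42.9% of all counts. Rescaling raised treated library 2 most, so a member could pass through that library alone, and 2446 members passed. In treated library 1, 409 members were then higher and 525 lower, beside 20.9% and 39.4% of all unigenes, and in treated library 3, 128 were higher and 734 lower, beside 12.4% and 44.1%. In treated library 2, 271 were higher and 1558 lower (9.14% and 67.8% of all). How many of these higher members passed the minimum only through treated library 2 was not counted. In all 3 treated libraries 42 members were higher and 301 lower, beside 1.19% and 24.4% of all unigenes. With the median ratio of unigenes set to 1 on deposited FPKM, 362, 345 and 170 members were higher and 313, 324 and 340 lower in the treated libraries, so the split between directions depended on the scaling. Of all unigenes, 19.3%, 23% and 13.2% were then higher and 36.3%, 25.6% and 35.9% lower. As a share on the remaining counts, 12.3% of the members and 24.1% of the goat-matched long unigenes were lower in all 3.

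The medians of the log2 x-fold on deposited FPKM were 0.08, -4.39 and -0.82 for the members in treated libraries 1, 2 and 3, and -0.88, -5.03 and -1.28 for the goat-matched long unigenes. The members' median thus lay 0.96, 0.64 and 0.47 above. On the remaining counts the difference was 0.90 and 0.43 in treated libraries 1 and 3, and in treated library 2, where most members had a count of 0, it turned to -1.98. These differences used the unigenes that passed the rescaled minimum, which is not the set used on deposited FPKM. By kind of member, the medians in treated library 1 were 0.40 for mRNA matches (n = 1686), 0.60 for non-coding RNAs (n = 100), 0.51 for genomic matches (n = 318) and 0.28 for members without a match (n = 333). In treated library 3, 24.0% of the mRNA matches, 29% of the non-coding RNAs, 46.9% of the genomic matches and 45.0% of the members without a match were below the lower limit. These shares are descriptions of 1 library each.

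**Figure D4:**
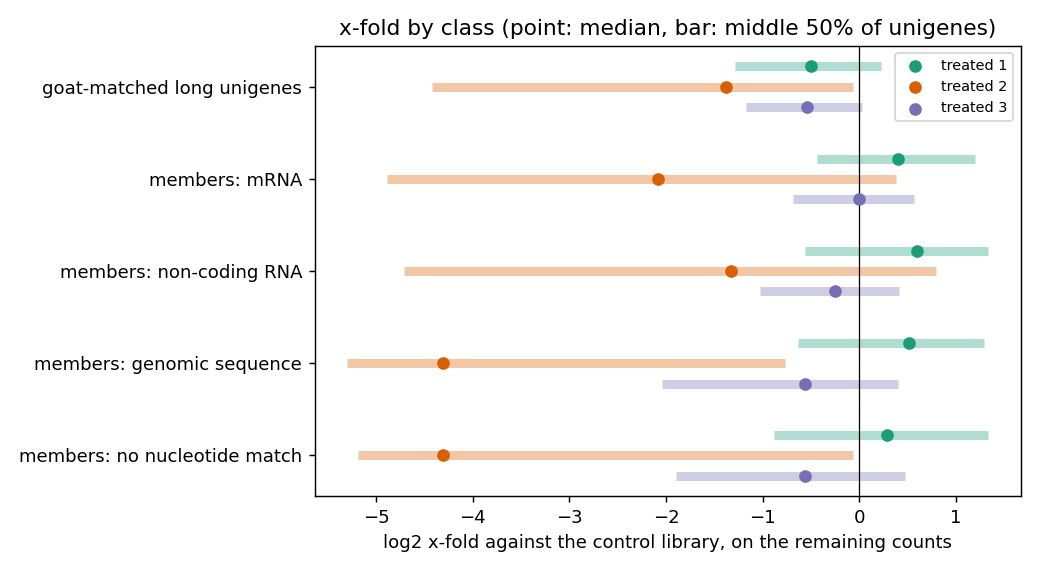
Log2 x-fold on the remaining counts (horizontal axis) in each treated library for the goat-matched long unigenes and 4 kinds of member, with the median as a point and the middle 50% of unigenes as a bar. In treated library 3 the median is -0.57 for members that match genomic sequence and -0.54 for the goat-matched long unigenes.

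The group test compared the 3 treated libraries with the control library and assumes that the lone control library varies like the treated ones. Of 2424 members tested, 22 rose and 8 fell at an adjusted p below 0.05 (edgeR), beside 0.866% and 0.596% of the 14441 unigenes tested. At an unadjusted p below 0.05, 238 members were found, or 9.82%, compared with 12.9% of all unigenes tested. The count was unsteady: DESeq2 called 6 members higher and 0 lower, beside 0.0479% and 0.0274% of all unigenes. At an unadjusted p below 0.05 DESeq2 found 64 members, for which no share of all unigenes was taken. Without treated library 1, 9 members rose and 8 fell (0.757% and 0.273% of all unigenes tested), without treated library 2, 7 and 7 (0.156% and 0.556%), and without treated library 3, 37 and 44 (2.52% and 3.11%).

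The members that rose and match a named gene included several with their highest level in treated library 1. NR4A3, an orphan nuclear receptor induced by cyclic AMP, had 3, 195, 0 and 9 counts in c7846_g2 (log2 fold change 5.53, adjusted p = 0.00869). BTG2, an early-response gene that slows cell division, had 61, 1276, 2 and 246 counts in c9680_g1 (4.12, adjusted p = 0.0339). Treated libraries 1 and 3 were above the control library for both, by 95.5-fold (32.2 to 467) and 6.73-fold (1.68 to 38.6) for NR4A3 and by 30.7-fold (23.8 to 40.4) and 9.05-fold (6.81 to 12.2) for BTG2. EMP1, an epithelial membrane protein, had 49, 710, 12 and 55 counts in c10168_g1, and its call (adjusted p = 0.0480) was kept in 0 of the 7 alternative fits. AKAP12, an anchor protein of protein kinase A, had 0, 33, 0 and 5 counts in c21699_g1 (adjusted p = 0.0339), at least 16.2-fold higher in treated library 1 against a floor of 3 counts in the control library. Of the 7 alternative fits, 4 kept the call of NR4A3, 2 that of BTG2 and 2 that of AKAP12, and all 3 calls were lost in DESeq2 and without treated library 1.

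Members that match CRYAB gene sequence rose too. CRYAB is a small heat shock protein that protects the sarcomere. The member c6312_g1 (1262 bases) matches the pig CRYAB gene and had 6, 288, 0 and 21 counts (log2 fold change 5.15, edgeR adjusted p = 0.0103), and c9079_g1 (1175 bases) matches a goat CRYAB intron and had 3, 105, 0 and 3 (4.70, adjusted p = 0.0455), a call kept in 1 of 7 alternative fits, where that of c6312_g1 was kept in 5. The goat-matched CRYAB unigenes had 37765, 91390, 250 and 5072 counts. The member c6312_g1 was 70.5-fold (32.0 to 194) above the control library in treated library 1 and 7.85-fold (3.06 to 23.8) in treated library 3, where the goat-matched unigenes were lower by a log2 difference of -1.73.

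Of the other members that rose, several had no nucleotide match. c9621_g1 (1352 bases) had 1, 2, 70 and 8 counts and the lowest adjusted p of the members, 7.86e-06, and c7105_g1 (2952 bases) had 4, 67, 60 and 10 (adjusted p = 7.97e-05). Neither was called without treated library 2, and DESeq2 called c7105_g1 but not c9621_g1. The unmatched c9813_g1 (1306 bases) was highest in treated library 1, with 29, 626, 4 and 24 counts (adjusted p = 0.0296), a call kept in 2 of 7 alternative fits. Among the most abundant members without a match, c13368_g1 had 540, 432, 2 and 429 counts and c12717_g1 had 289, 300, 2 and 124, and neither was called (adjusted p = 0.888 and 0.934). The same held for c13606_g1, a cattle cDNA clone with 694, 448, 21 and 279 counts (adjusted p = 0.944). By x-fold on the remaining counts in the treated library closest to the control library, 5 members ranked highest. Beside the repeat pair these were NRARP (c9141_g1, a Notch feedback gene; 5, 50, 2 and 44 counts), c8828_g1, which matches a pig clone (16, 182, 3 and 255), and c13371_g1, a C9orf59 mRNA (126, 518, 19 and 354). Of these 3, c8828_g1 rose in the test (edgeR adjusted p = 0.0113, kept in 5 of 7 alternative fits), and NRARP and c13371_g1 had adjusted p of 0.0518 and 0.163.

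The 4 members named here that fell had at most 343 counts in the control library. c2573_g1 (1063 bases), which matches a SHANK1-like mRNA, had 145, 0, 0 and 2 counts (edgeR adjusted p = 0.000764) and, with 3 counts taken as the floor of treated library 1, lay at least 32.9-fold lower there, and c6430_g1 (4668 bases), which matches a pig clone of the X chromosome, had 165, 5, 0 and 1 (log2 fold change -4.70, adjusted p = 0.00275). c13634_g3 (3929 bases), which matches a human clone, had 166, 11, 0 and 1 (-3.82, adjusted p = 0.0179). PAIP2B, a regulator of poly(A)-binding protein, fell in 1 of its members, c12788_g8, with 343, 14, 1 and 20 counts (-3.05, adjusted p = 0.0451), while the PAIP2B members c12788_g11 and c12783_g1 had 234, 142, 0 and 60 and 240, 451, 6 and 201, and the goat-matched PAIP2B unigene had 117, 6, 0 and 11. In these 4 members that fell, every treated library lay below the control library. The calls of c2573_g1, c6430_g1, c13634_g3 and c12788_g8 were kept in 5, 4, 3 and 3 of 7 alternative fits, and without treated library 1, 0 of the 8 lower calls were kept. Also among the lowest by rank were ACSL4, a fatty acid activating enzyme (c12682_g3; 136, 9, 0 and 6 counts, adjusted p = 0.0787), and KIAA0513 (c13684_g1; 147, 6, 0 and 7, adjusted p = 0.0505).

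Lists of genes with known roles in muscle were counted by the symbol in the match. Of 27 sarcomere genes, 7 had a member, in 11 unigenes, and 0 were called in the group test. Of 8 calcium handling genes, TRDN, which anchors calsequestrin to the calcium release channel, had 2 members with different patterns: c13456_g4 had 464, 1134, 2 and 254 counts and c12657_g1 had 470, 94, 1 and 41 (edgeR adjusted p = 0.666 and 0.274). Of 14 cAMP-responsive genes, 3 had members, in 4 unigenes, of which NR4A3 rose and 3 were not called. One of these, PPARGC1A, the coactivator of mitochondrial biogenesis, had 30, 176, 2 and 11 counts in c10770_g1 (adjusted p = 0.307). Of 7 FOXO and atrophy genes, 4 had a member each and 0 were called, among them FOXO1 with 585, 460, 8 and 36 counts in c13476_g4 (adjusted p = 0.878). Of 9 extracellular matrix genes, DCN alone had a member (39, 106, 19 and 35 counts, adjusted p = 0.146), and 0 of 9 glycolysis genes had one.

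Around the length limit, the 221 members of 1000 to 1049 bases had median counts of 12, 11, 0 and 5, and the 295 unigenes of 950 to 999 bases that meet the other criteria had 12, 11, 0 and 4. Their summed counts differed, with 4480, 5075, 5041 and 2354 in these members and 10862, 23402, 504 and 12078 in the shorter unigenes. Of the 5041 in treated library 2, c13152_g1 held 4876. Shares built on sums therefore depend on the length limit. In 387 of the 2584 members the authors' naming places a goat-matched unigene in the same assembly component.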

How the data were processed

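RNA of longissimus muscle was sequenced, and the authors assembled the reads without a genome. The aligner, assembler and counting tool are not given in the sources used here. The authors deposited for each unigene an expected count (all whole numbers, rounded before the fits), an FPKM value, an annotation table with length and sequence, and the percent identity of goat protein matches. The library kit is not stated to keep strand, so antisense reads cannot be told apart. Members were sorted by the first nucleotide match, and the gene symbol was read from it. Near-identical copies may share counts. The members and lists were chosen with earlier results of these data known.

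The group test was edgeR 4.0.16 (TMM, filterByExpr, quasi-likelihood, Benjamini-Hochberg over all unigenes), with DESeq2 1.42.0 as an alternative. The edgeR test was also run on simulated counts, where all libraries had the same composition apart from the unigenes made to change. The real libraries differ widely in composition, so that run does not show how the test performs on them. The study took different animals on different days, but no source ties a library to an animal or a day, so p-values measure only the spread between these libraries. Folds in counts per 1000000 (of remaining counts) carry 95% exact intervals for counting error only. Members named are the 3 highest by mean FPKM of each kind, the 5 highest and lowest by x-fold on the remaining counts with at least 100 counts, listed non-coding RNAs, and the 5 lowest p in each direction. This rule gave 33 members and its limit of 30 left out the last 3. Folding used RNAfold 2.7.2, and other steps Python 3.11.15. The authors' transcript tables and FPKM class tables were not used.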

Additional observations from a re-analysis of the deposited data

How the results depend on the processing

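Of the alternatives, 35 left a result as it was, 53 moved it and 1 reversed it, and the cause was not tested unless the setting has fewer members by construction. In the group test (22 higher, 8 lower), DESeq2 called 6 and 0, with 2390 members given no adjusted p, no filter on low counts 5 and 2, RLE normalization 17 lower, and setting mitochondrial, ribosomal and bacterial unigenes aside 14 higher. Leaving out 1 treated library gave 7 to 37 higher and 7 to 44 lower. Of the 30 called members 1 was called in all 7 alternatives. Shares of all unigenes were not taken for the fits with no filter, with RLE normalization or with unigenes set aside. Their counts are therefore not set beside all unigenes. No paired analysis was possible because the control group has 1 library.

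Members outside the limits numbered 684, 1885 and 1052 in treated libraries 1, 2 and 3 and 436 the same way in all 3. With a minimum mean FPKM of 0.1 they were 1063 in treated library 1 and 730 in all 3. With a minimum of 5 they were 126, 361, 196 and 79. With the median ratio of unigenes set to 1, treated libraries 2 and 3 had 669 and 510 and all 3 had 141, of which 70 were higher and 71 lower, where 2 were higher before. With members of 2000 bases or more the counts were 180, 467, 311 and 149. Leaving out 1 treated library gave 449 to 1029, the highest without treated library 1. Shares of all unigenes are given above for the main limits and for each library at the median ratio. They were not taken for the other settings of this paragraph, so those counts are not set beside all unigenes.

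The share of the members in the control library and treated libraries 1, 2 and 3 was 2.43%, 2.87%, 0.895% and 1.503% of all counts, 3.00%, 4.63%, 30.01% and 3.16% by FPKM times length, 3.05%, 4.66%, 18.4% and 3.07% without the member of highest count, 1.65%, 2.60%, 15.5% and 1.88% for members of 2000 bases or more, and, with the 6 members set apart taken out of the denominator as well, 2.99%, 4.53%, 2.92% and 2.92%. The difference of medians from the goat-matched unigenes in treated libraries 1 and 2 was 0.79 and 0.88 with a pseudocount of 1 FPKM, and 1.08 and 0.23 with a minimum mean FPKM of 5. With a minimum of 0.1 it was 0.86 and 0.40 in treated libraries 1 and 3, and with unigenes of 2000 bases or more 0.74, 0.47 and 0.38 in treated libraries 1, 2 and 3. On the remaining counts, with the minimum on rescaled FPKM, it was -1.98 in treated library 2. The alternatives without the 6 members and the medians on the remaining counts were chosen after seeing the data. The small remaining count of treated library 2, most of whose counts were mitochondrial, limits every value there.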
